A study of Homo sapiens with 12 samples.

Results

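Integrins are the receptors that fix epithelial cells to the matrix beneath them, and laminins are the cross-shaped proteins of that matrix, the basement membrane. The genes of their chains were read in RNA sequencing of 2 established lines of human lung cancer (non-small cell), HCC827 and NCI-H1975, after a small molecule or after siRNA. Members were taken by symbol alone: ITGA or ITGB with a chain number or chain letter, and LAMA, LAMB or LAMC with a number. Described here are 37 of the 17776 genes in the deposited tables, 18 integrin α chains, 8 integrin β chains and 11 laminin chains (5 α, 4 β and 2 γ). Of these, 18 had at least 1 FPKM (fragments per kilobase of transcript, scaled to library size) in at least 2 of the 6 libraries of a table, and the same 18 passed in both tables. ITGBL1 (0.00 to 0.73 FPKM) and ITGB3BP (16.88 to 63.99 FPKM) share the first letters but encode no integrin chain and were not counted.

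The 18E table holds both lines with DMSO as the control and with the compound named 18E, at 2.5 µM or at 5 µM for 24 h. The siRNA table holds both lines with the control siRNA siCON and with siDYN-1 or siDYN-2, whose labels state 48 h. The labels name no introduced allele in either line, and each of the 12 libraries is the single one of its line and treatment. The only repeats of a treatment are therefore the 2 lines and, for siDYN, the 2 siRNAs. Tests between the lines use the treatments as repeats instead. A p-value sets the size of a fitted change against how far these libraries disagree, a spread that is shared in part over genes. LIC1, named in the title of the series, is another name of DYNC1LI1, a light intermediate chain of the dynein motor.

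As background, an integrin is a pair of 1 α and 1 β chain, and the pair decides what is bound. ITGB1 pairs with most α chains: with ITGA3 and ITGA6 it binds laminin, with ITGA2 collagen, with ITGA5 fibronectin. ITGB4 pairs with ITGA6 alone and anchors hemidesmosomes to the keratin network, while ITGAV pairs with ITGB1, ITGB3, ITGB5, ITGB6 or ITGB8 on ligands that carry the RGD motif. A laminin is a trimer of 1 α, 1 β and 1 γ chain. LAMA3 and LAMB3 belong to the trimer to which hemidesmosomes bind, and LAMA5 with LAMB1 or LAMB2 and LAMC1 forms the laminins of most mature epithelial basement membranes.

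DYNC1LI1 stood at 23.73 FPKM in NCI-H1975 with siCON and at 5.1 and 3.04 with siDYN-1 and siDYN-2. In HCC827 the values were 16.28, 2.42 and 1.22 FPKM, so both siDYN libraries of each line were below their control. All 7 of 7 epithelial markers (EPCAM, CDH1, KRT7, KRT8, KRT18, KRT19 and NKX2-1) were at 1 FPKM or more, with summed levels of 3742.17 to 9251.3 FPKM in the 18E table and 5682.76 to 9920.36 in the siRNA table. The platelet, endothelial and fibroblast lists stayed low, with summed maxima of 1.7 and 1.46 FPKM for the endothelial and fibroblast lists and no platelet gene above 0.72. Of the leukocyte list only CD14 (up to 10.65 FPKM) and CD68 (32.66 to 228.54), a lysosomal glycoprotein, reached 1 FPKM, and PTPRC, the pan-leukocyte marker, was at most 0.83. The HCC827 library at 5 µM 18E stood apart: 21.2% of the 11953 genes tested were at least 1.5-fold lower there than with DMSO, against 9.22% in NCI-H1975 at 5 µM, 2.45% in NCI-H1975 at 2.5 µM and 2.74% in HCC827 at 2.5 µM. In bulk RNA, fewer cells of a kind and less RNA per cell cannot be told apart.

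The 19 low chains, which passed the filter in neither table, were ITGA1, ITGA4, ITGA7, ITGA8, ITGA9 (complete values in the siRNA table only), ITGA10, ITGA11, ITGA2B, ITGAD, ITGAL, ITGAM, ITGAX, ITGB7, ITGB8, LAMA1, LAMA2, LAMA4, LAMB4 and LAMC3. They include the α chains of leukocytes (ITGAD, ITGAL, ITGAM and ITGAX, at most 0.02, 0.15, 0.24 and 0.44 FPKM) and of platelets (ITGA2B, at most 0.45). They also include the vessel-type laminin chain LAMA4 (at most 0.16 FPKM). Just outside the filter stood LAMA2 (highest 1.08 FPKM), ITGA7 (1.06) and ITGA1 (1.0). Just inside stood ITGB3, which reached 1 FPKM only in the NCI-H1975 libraries of each table. No test was made on the low chains.

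Of the main fits, with the 2 siRNAs as repeats, only those between the 2 lines had chains that passed the test. HCC827 had the higher level of LAMB1, LAMA5, LAMA3, ITGB1, ITGA3, ITGB4 and ITGB6 in both tables, and NCI-H1975 the higher level of ITGB3 in both. On log2(FPKM + 1), the scale of every difference and fold change given here, LAMB1 was higher in HCC827 by 4.67 ± 0.24 (SE) in the 18E table and by 4.01 ± 0.16 in the siRNA table (limma adjusted p = 0.000218 and 2e-05). In the siRNA table LAMB1 reached 1 FPKM in NCI-H1975 with siCON alone (1.64), so there it passed the filter through HCC827. The difference for ITGB1 was 2.21 ± 0.27 and 2.55 ± 0.11 (limma adjusted p = 0.00206 and 2.1e-05), and that for ITGB3 was -1.78 ± 0.28 and -1.86 ± 0.17 (0.00466 and 0.000341). ITGB3 was at most 0.61 FPKM in HCC827 and passed the filter through NCI-H1975 alone. Where a chain passed the filter only through the line in which it is higher, its p-value is no independent support for the difference. That holds for ITGB3 in both tables and LAMB1 in the siRNA table. In this comparison limma was fitted to all genes with treatment as a block, so that the 3 treatments of a line stand in for repeats.

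With the 18E libraries, 10 of 18 chains passed at an adjusted p under 0.05, where 52.0% of all genes did. Of the 10, 8 were higher in HCC827 (all genes: 21.2%) and 2 lower (30.7%). With the siRNA libraries, 13 of 18 passed (57.0% of all genes), with 10 higher in HCC827 (22.6%) and 3 lower (34.4%). Passing is common in this comparison. The median difference was 0.48 over the chains and -0.1 over all genes in the 18E table, and 0.57 and -0.12 in the siRNA table. Library totals were not made equal in this fit. With equal FPKM totals the 18E differences of ITGA3, ITGB1 and LAMB3 were 1.783, 2.344 and 0.785, in place of 1.653, 2.213 and 0.655. How far scaling enters the all-gene medians was not tested. LAMB3 (0.65 ± 0.22, limma adjusted p = 0.0489) and ITGAE (-0.59 ± 0.14, 0.015) passed in the 18E table only, and both lost the call when some libraries were left out, LAMB3 also without a variance trend (a prior spread that varies with level) or a filter on low values. In the siRNA table LAMC1, ITGB2 and ITGA2 were higher in HCC827 by 0.67, 0.74 and 0.48 (limma adjusted p = 0.00431, 0.0189 and 0.0441), and ITGB5 and LAMB2 lower (-0.38 and -0.50, 0.0424 and 0.0376). These passed in the siRNA table alone, and ITGA2, ITGB2, ITGB5 and LAMB2 lost the call under at least 1 alternative.

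**Figure D1:**
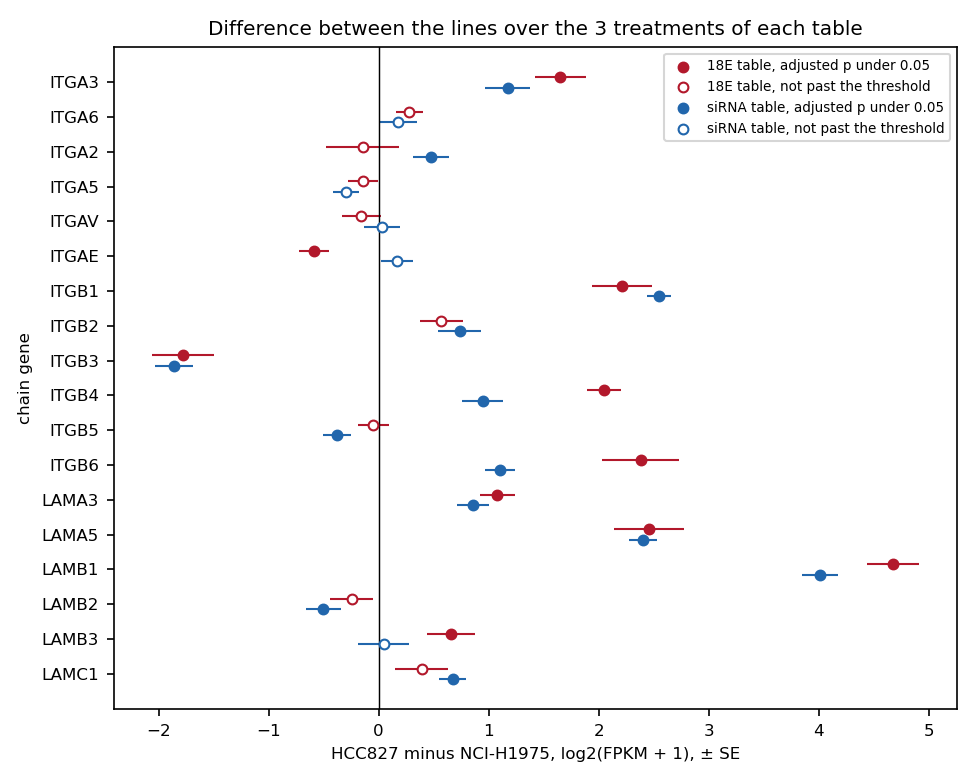
Difference between HCC827 and NCI-H1975 in log2(FPKM + 1) for each chain (rows), in the 18E table (red) and the siRNA table (blue), from limma. Points are fitted differences, bars their standard errors, and filled points have an adjusted p under 0.05; LAMB1 lies farthest to the right (4.67 and 4.01) and ITGB3 farthest to the left (-1.78 and -1.86).

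Laminin β chains gave the clearest contrast between 2 genes of 1 position. LAMB1, the β chain of most basement membrane laminins (chr7:107923799-108003255, minus strand, GRCh38), stood at 3.63, 1.26 and 0.68 FPKM in NCI-H1975 with DMSO, 2.5 µM and 5 µM 18E, and at 94.89, 90.73 and 32.24 in HCC827. With siCON, siDYN-1 and siDYN-2 it stood at 1.64, 0.97 and 0.68 FPKM in NCI-H1975 and at 55.83, 25.36 and 23.58 in HCC827. All 8 treated libraries lay below the control of their line, although in HCC827 the 2.5 µM library kept 95.6% of the control level. At 5 µM, 18.7% of the control level was left in NCI-H1975 and 34.0% in HCC827. The NCI-H1975 levels are low, so the fold there rests on few FPKM.

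LAMB3, the β chain of the hemidesmosome-binding trimer (chr1:209614870-209652466, minus strand), went the other way with 18E. It stood at 80.12, 99.89 and 117.27 FPKM in NCI-H1975 and at 90.59, 145.33 and 280.78 in HCC827, so in both lines the order was DMSO, 2.5 µM, 5 µM. In the siRNA experiment it stood at 121.85, 105.91 and 92.48 FPKM in NCI-H1975 and at 86.84, 94.87 and 159.45 in HCC827. There the lines parted, with both siDYN libraries below the control in NCI-H1975 and both above it in HCC827. LAMB2, the other β chain that pairs with LAMA5, ranged from 3 to 6.75 FPKM in the 18E table and from 1.62 to 6.01 in the siRNA table. It was lowest in HCC827 at 5 µM (3 against 6.05 FPKM with DMSO) and in HCC827 with siDYN-1 (1.62 against 4.3).

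Laminin α chains were LAMA5 and LAMA3. LAMA5 (chr20:62307955-62367312, minus strand) stood at 7.12, 6.04 and 4.11 FPKM in NCI-H1975 across DMSO, 2.5 µM and 5 µM 18E, and at 68.01, 48.16 and 13.35 in HCC827. With siCON, siDYN-1 and siDYN-2 it stood at 4.96, 3.47 and 2.07 FPKM in NCI-H1975 and at 33.33, 19.05 and 16.73 in HCC827. Every treated library was below its control, and 5 µM left 57.7% of the control level in NCI-H1975 and 19.6% in HCC827. LAMA3 (chr18:23689443-23956222, plus strand) stood at 15.69, 14.75 and 13.17 FPKM in NCI-H1975 and at 35.25, 39.27 and 22.95 in HCC827 with 18E. With siRNA it stood at 14.83, 10.49 and 8.39 FPKM in NCI-H1975 and at 22.27, 19.91 and 19.91 in HCC827. LAMA3 was lower in 7 of 8 treated libraries, the exception being HCC827 at 2.5 µM.

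LAMC1, the γ chain of most laminins (chr1:183023460-183145592, plus strand), stood at 30.98, 26.62 and 22.55 FPKM in NCI-H1975 and at 55, 43.17 and 18 in HCC827 with 18E. In the siRNA libraries it stood at 23.88, 19.95 and 20.48 FPKM in NCI-H1975 and at 44.42, 27.36 and 34.27 in HCC827. All 8 treated libraries were below their controls, HCC827 at 5 µM by the most (32.7% of the control level).

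Promoter sequence of the tested chains was read as a description, with no test. RefSeq windows on GRCh38.p14, 250 bases before to 50 after a start site, were at hand for 14 of the 18 chains (21 windows); ITGA3, ITGB2, ITGB3 and ITGB4 had none. Searched on both strands, the AP-1 motif TGANTCA was found in windows of 3 genes, LAMB3, LAMA3 and ITGA5, and in 7.71% of all 35116 windows of this length in the table. The TEAD motif GGAATG was found in 2 of the 21, of ITGA5 and ITGB1 (14.0% of all windows). The ATF4 motif TGATGNAA was found in 1, of ITGB5 (3.62%). A match describes letters only. The windows shown are the 3 with an AP-1 match and that of LAMB1, which has no match to any of the motifs, each written 5′ to 3′ along the gene's strand with motif matches in capitals. The LAMB3 window is chr1:209651325-209651624 (minus strand), 1 of 3 for this gene, with the AP-1 match starting at -67 from the start site. The LAMA3 window is chr18:23872770-23873069 (plus strand), with AP-1 matches at -125 and -69. The ITGA5 window is chr12:54419217-54419516 (minus strand), with an AP-1 match at -6 and a TEAD match at -82, and the LAMB1 window is chr7:108003112-108003411 (minus strand).
LAMB3: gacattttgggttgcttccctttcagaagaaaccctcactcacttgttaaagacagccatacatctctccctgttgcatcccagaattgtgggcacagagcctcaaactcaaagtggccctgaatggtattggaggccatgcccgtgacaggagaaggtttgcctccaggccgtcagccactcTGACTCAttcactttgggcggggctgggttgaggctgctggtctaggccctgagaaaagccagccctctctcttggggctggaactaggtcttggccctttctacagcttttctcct
LAMA3: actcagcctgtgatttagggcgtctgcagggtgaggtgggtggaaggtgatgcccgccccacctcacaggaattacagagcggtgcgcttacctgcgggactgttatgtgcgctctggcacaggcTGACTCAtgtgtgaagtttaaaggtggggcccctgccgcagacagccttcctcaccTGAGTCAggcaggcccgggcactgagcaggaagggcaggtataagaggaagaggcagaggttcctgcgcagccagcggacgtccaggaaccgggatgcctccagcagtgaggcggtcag
ITGA5: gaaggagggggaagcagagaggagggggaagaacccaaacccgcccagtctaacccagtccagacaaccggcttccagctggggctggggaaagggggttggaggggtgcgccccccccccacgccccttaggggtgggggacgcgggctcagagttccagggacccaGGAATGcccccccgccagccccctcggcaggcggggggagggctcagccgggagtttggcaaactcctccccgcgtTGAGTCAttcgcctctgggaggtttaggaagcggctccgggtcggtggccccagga
LAMB1: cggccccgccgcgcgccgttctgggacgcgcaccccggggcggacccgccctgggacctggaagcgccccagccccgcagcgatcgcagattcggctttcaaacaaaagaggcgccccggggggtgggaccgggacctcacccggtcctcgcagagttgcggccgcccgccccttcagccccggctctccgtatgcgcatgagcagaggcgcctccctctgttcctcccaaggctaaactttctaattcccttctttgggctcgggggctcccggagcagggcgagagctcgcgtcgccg

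ITGB1, the common β chain (chr10:32900319-33005792, minus strand), was the most abundant chain in 5 of the 6 HCC827 libraries, LAMB3 being above it at 5 µM 18E. It stood at 102.41, 83.35 and 83.68 FPKM in NCI-H1975 with DMSO, 2.5 µM and 5 µM 18E, and at 677.3, 492.69 and 219.04 in HCC827. With siCON, siDYN-1 and siDYN-2 it stood at 72.86, 37.53 and 43.12 FPKM in NCI-H1975 and at 434.17, 200.6 and 285.75 in HCC827. All 8 treated libraries were below their controls. With siDYN the level was between 46.2% and 65.8% of control in the 4 libraries, and at 5 µM it was 81.7% in NCI-H1975 and 32.3% in HCC827.

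ITGB4, the hemidesmosome chain, stood at 5.77, 3.85 and 3.21 FPKM in NCI-H1975 and at 28.68, 22.11 and 13.35 in HCC827 across DMSO, 2.5 µM and 5 µM 18E. In the siRNA libraries it stood at 7.23, 9.29 and 3.82 FPKM in NCI-H1975 and at 15.53, 13.19 and 11.45 in HCC827. It was below the control in all 4 18E libraries and in 3 of 4 siDYN libraries, with NCI-H1975 and siDYN-1 above it. Its only partner ITGA6 stood at 43.95, 43.85 and 40.13 FPKM in NCI-H1975 and at 54.17, 57.06 and 45.17 in HCC827 with 18E, and its log2 changes there lay between -0.26 and 0.07. With siRNA ITGA6 stood at 25.78, 21.89 and 11.73 FPKM in NCI-H1975 and at 23.8, 21.76 and 19.12 in HCC827. The largest ITGA6 difference was in NCI-H1975 with siDYN-2.

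ITGB6, the epithelial partner of ITGAV that binds latent TGF-β, stood at 4.82, 2.37 and 2.48 FPKM in NCI-H1975 and at 27.88, 33.83 and 8.66 in HCC827 with 18E. In the siRNA libraries it stood at 5.33, 4.34 and 4.07 FPKM in NCI-H1975 and at 13.84, 8.33 and 11.31 in HCC827. It was below its control in 7 of 8 treated libraries, HCC827 at 2.5 µM being above. ITGB5, the vitronectin-binding partner of ITGAV, stood at 49.14, 35.63 and 29.98 FPKM in NCI-H1975 and at 40.08, 39.78 and 29.7 in HCC827 with 18E. With siRNA it stood at 34.76, 33.15 and 24.18 FPKM in NCI-H1975 and at 22.52, 24.5 and 22.21 in HCC827, and the HCC827 siDYN libraries lay on both sides of siCON. ITGB3, the β chain of the vitronectin receptor, stood at 5.91, 2.68 and 3.12 FPKM in NCI-H1975 and at only 0.13, 0.43 and 0.61 in HCC827 with 18E. Its siRNA values were 4.86, 3.49 and 2.13 FPKM in NCI-H1975 and 0.33, 0.1 and 0.18 in HCC827.

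ITGB2, known as the β chain of leukocyte integrins, was read at 8.57, 5.91 and 5.5 FPKM in NCI-H1975 and at 12.92, 13.04 and 6.21 in HCC827 with 18E. In the siRNA libraries it stood at 6.32, 4.33 and 4.13 FPKM in NCI-H1975 and at 8.58, 6.61 and 11.66 in HCC827. Its α partners ITGAL, ITGAM, ITGAX and ITGAD were all under 0.5 FPKM. The summed leukocyte list, most of it CD68, was 40.19, 57.13 and 51.49 FPKM for NCI-H1975 and 109.72, 231.45 and 174.51 for HCC827 in the 18E table, and 58.46, 54.61 and 40.35 and then 73.44, 105.3 and 111.45 with siRNA. CD3E was not analysed here, 2 of the 5 others reached 1 FPKM, and the part of this list in the ITGB2 values was not tested.

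Among α chains ITGA3, the laminin receptor chain of lung epithelium, was the most abundant in HCC827. It stood at 87.23, 76.74 and 66.32 FPKM in NCI-H1975 and at 338.83, 320.04 and 130.53 in HCC827 with 18E, and all 4 treated libraries were below DMSO. With siRNA it stood at 111.99, 84.46 and 54.53 FPKM in NCI-H1975 and at 242.22, 132.33 and 188.2 in HCC827, again with all 4 below the control. ITGA2, the collagen receptor chain, stood at 19.86, 22.81 and 23.9 FPKM in NCI-H1975 and at 35.39, 18.94 and 11.58 in HCC827 with 18E, so the lines lay on opposite sides of DMSO. With siRNA ITGA2 stood at 18.63, 10.96 and 7.02 FPKM in NCI-H1975 and at 21.05, 14.38 and 13.91 in HCC827, with all 4 siDYN libraries below siCON.

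ITGAV stood at 16.72, 13.51 and 14.83 FPKM in NCI-H1975 and at 17.77, 13.64 and 9.67 in HCC827 with 18E. In the siRNA libraries it stood at 14.31, 7.8 and 4.29 FPKM in NCI-H1975 and at 11.55, 7.4 and 6.18 in HCC827. Every treated library was below its control. The siDYN levels were 30.0% to 64.1% of siCON, the lowest in NCI-H1975 with siDYN-2. ITGA5, the fibronectin receptor chain (chr12:54395261-54419460, minus strand), was above its control in most libraries. It stood at 50.77, 54.37 and 64.59 FPKM in NCI-H1975 and at 43.57, 43.4 and 69.73 in HCC827 with 18E, and at 92.09, 113.97 and 109.9 and then 66.41, 87.76 and 106.12 with siRNA. ITGA5 was above the control in 7 of 8 treated libraries and level with it in HCC827 at 2.5 µM (99.6% of DMSO). ITGAE, the α chain of the E-cadherin receptor of mucosal lymphocytes, stood between 4.07 and 7.15 FPKM with 18E and between 5.69 and 9.98 with siRNA.

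**Figure D2:**
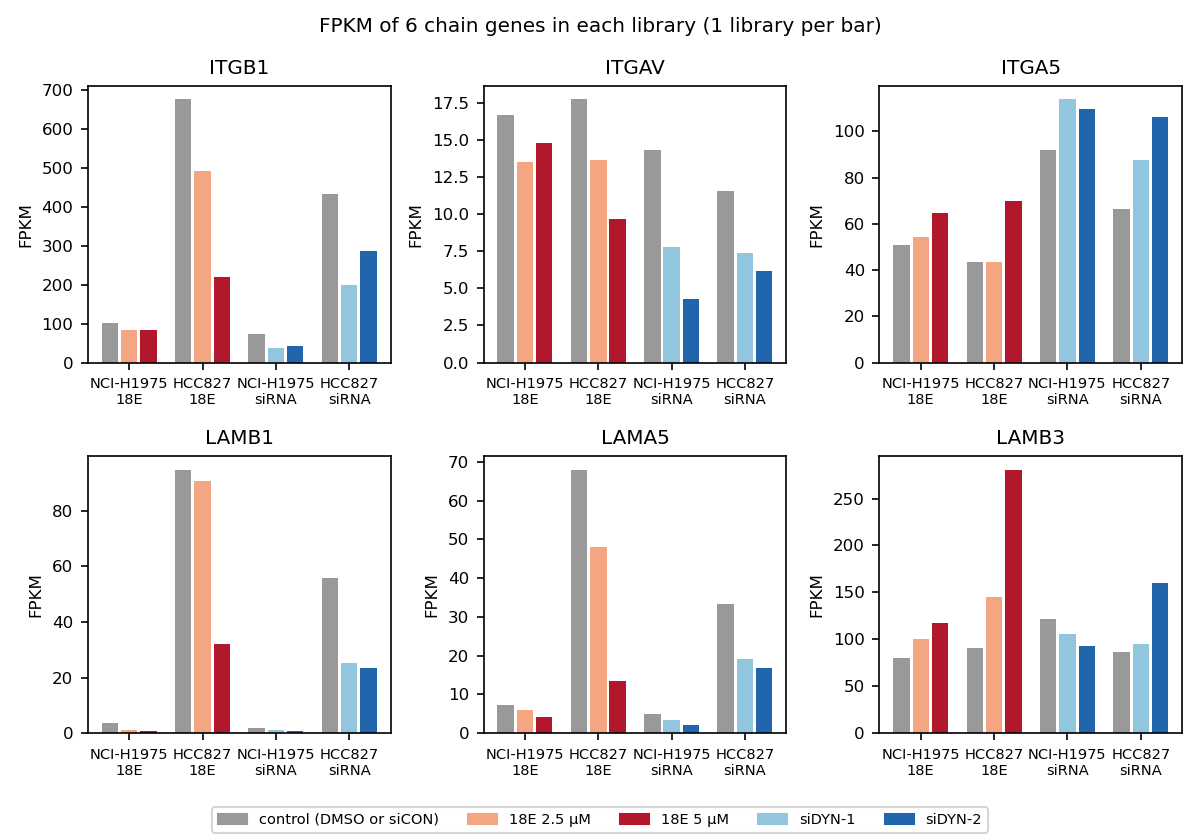
FPKM of ITGB1, ITGAV, ITGA5, LAMB1, LAMA5 and LAMB3 in each of the 12 libraries, grouped by line and experiment; each bar is 1 library, with no error bar. The 5 µM bar of LAMB3 in HCC827 (280.78 FPKM) is the highest of its panel, while those of ITGB1 (219.04) and LAMA5 (13.35) are the lowest of the HCC827 18E groups.

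At 5 µM 18E, 13 of the 18 chains were lower than with DMSO in both lines (all genes: 40.8%) and 3 were higher in both, LAMB3, ITGA5 and ITGAE (25.5%). Of the 13, LAMB1, LAMA5, ITGB4 and ITGB6 were at least 1.5-fold lower in both lines, 4 of 18 chains against 5.14% of all genes, and no chain was at least 1.5-fold higher in both (3.09%). The median fitted change was -0.60 over the chains and -0.09 over all genes. Lower values were fitted for LAMB1 (-1.50 ± 0.29, SE), LAMA5 (-1.47 ± 0.39), ITGB6 (-1.16 ± 0.43), LAMC1 (-1.0 ± 0.30), ITGB1 (-0.96 ± 0.33), ITGA3 (-0.88 ± 0.28) and ITGB4 (-0.87 ± 0.19), and higher ones for LAMB3 (1.08 ± 0.27) and ITGA5 (0.50 ± 0.17). Without the HCC827 library at 5 µM, which leaves NCI-H1975 alone for the dose, these were -0.74 for LAMA5, -0.48 for ITGB6, -0.47 for LAMC1, -0.33 for ITGB1, -0.37 for ITGA3, 0.63 for LAMB3 and 0.32 for ITGA5. Without the NCI-H1975 library at 5 µM they were -1.85 for ITGB6, -1.53 for LAMC1, -1.58 for ITGB1 and -1.40 for ITGA3, and without HCC827 DMSO the change of ITGB1 was -0.58. LAMB1 and ITGB4 moved by less than 1.5 times with any library left out.

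None of these passed limma: the adjusted p was 0.102 for LAMB1, 0.104 for ITGB4 and 0.11 for LAMB3, and 0.102 to 0.843 over the 18. Over all genes 1 of 11953 passed (0.00837%). At an unadjusted p under 0.05 there were 11 chains, 9 lower and 2 higher, against 26.8% of all genes. The NCI-H1975 library at 5 µM weighs on this. Without it 14 chains passed limma, 12 lower and 2 higher, where 37.8% of all genes did. The HCC827 library then stands alone for the dose, and its spread is taken from the other libraries. Leaving out the HCC827 library at 5 µM instead puts NCI-H1975 in the same position. The median change of the chains was -0.883 without the NCI-H1975 library and -0.339 without the HCC827 library. The cause of the 14 calls was not tested. By library, 12 chains were at least 1.5-fold lower in HCC827 at 5 µM and 6 in NCI-H1975 at 5 µM, which are read against the 21.2% and 9.22% of all genes above; LAMB3 and ITGA5 were at least 1.5-fold higher in HCC827 (15.5% of all genes) and no chain was in NCI-H1975.

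**Figure D3:**
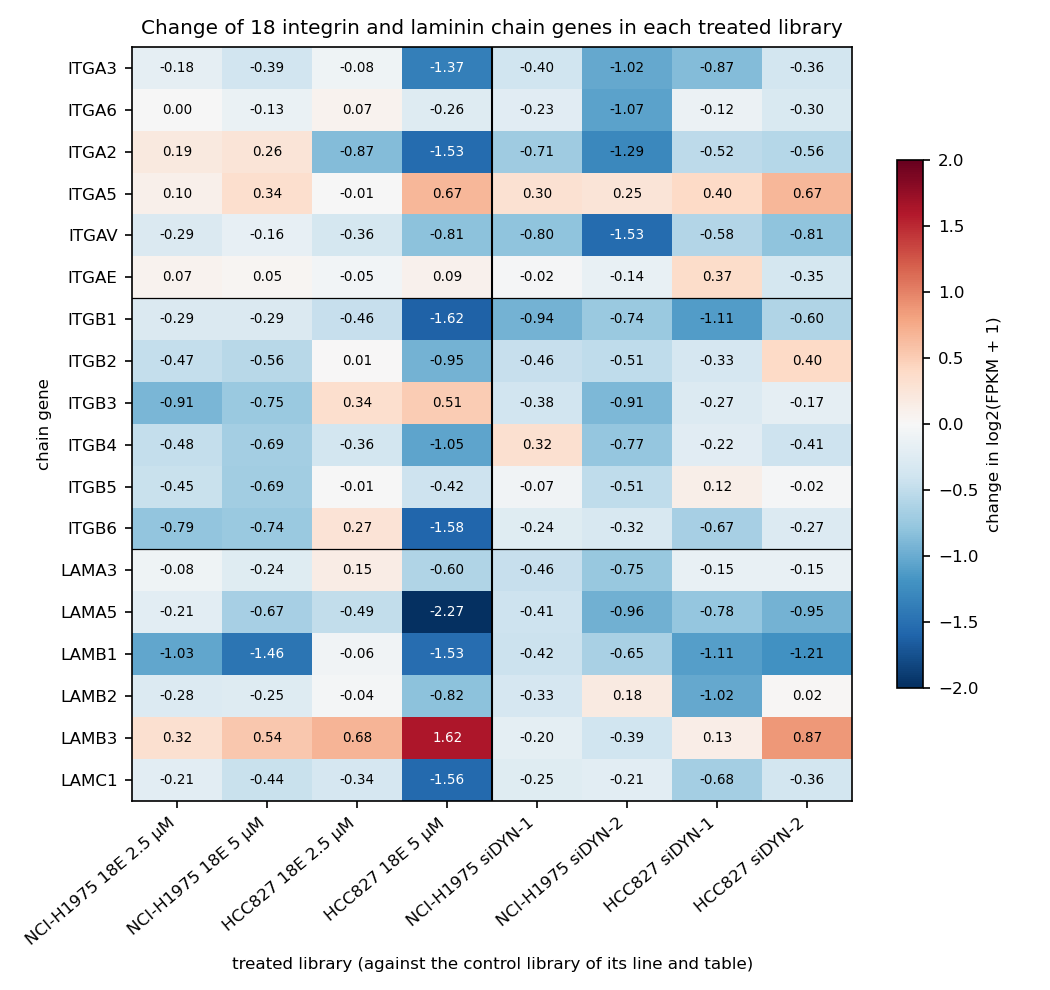
Change in log2(FPKM + 1) of the 18 tested chains (rows: integrin α, integrin β, laminin) in each of the 8 treated libraries (columns) against the control of the same line and table; blue is lower, red is higher, and the number in each cell is the change. The column of HCC827 at 5 µM 18E holds the lowest value (LAMA5, -2.27) and the highest (LAMB3, 1.62).

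At 2.5 µM the changes were smaller. LAMB3 was the 1 chain higher in both lines (all genes: 32.2%), and 9 of 18 were lower in both (31.6%): LAMA5, LAMB1, LAMB2, LAMC1, ITGA3, ITGAV, ITGB1, ITGB4 and ITGB5. No chain was at least 1.5-fold lower in both (0.335% of all genes) or higher in both (1.11%). In a single line, 3 chains were at least 1.5-fold lower in NCI-H1975 (LAMB1 -1.03, ITGB3 -0.91 and ITGB6 -0.79; 2.45% of all genes) and 1 in HCC827 (ITGA2 -0.87; 2.74%). LAMB3 was at least 1.5-fold higher in HCC827 (0.68; 4.55% of all genes). No chain and no gene passed limma (0.0% of all genes), the adjusted p of the chains being 0.915 to 0.995; 0 chains and 5.26% of all genes had an unadjusted p under 0.05. The 2 doses were also compared directly, from the same limma fit, and again 0 chains and 0.0% of all genes passed, with 4 chains (3 lower and 1 higher at 5 µM) and 11.8% of all genes at an unadjusted p under 0.05. The median change from 2.5 to 5 µM was -0.41 over the chains and -0.1 over all genes.

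With siDYN, 11 of the 18 chains were lower than with siCON in all 4 libraries (all genes: 25.6%) and 1, ITGA5, was higher in all 4 (24.9%). The 11 were ITGB1, ITGB3, ITGB6, ITGA2, ITGA3, ITGA6, ITGAV, LAMA3, LAMA5, LAMB1 and LAMC1. ITGB1 was at least 1.5-fold lower in all 4, 1 of 18 against 0.7% of all genes, and no chain was at least 1.5-fold higher in all 4 (1.34%). ITGAV missed this rule only in HCC827 with siDYN-1, where its change was -0.58. The median fitted change was -0.38 over the chains and 0.01 over all genes. The fitted changes were -0.93 ± 0.24 (SE) for ITGAV, -0.85 ± 0.17 for ITGB1, -0.85 ± 0.19 for LAMB1, -0.78 ± 0.19 for LAMA5, -0.77 ± 0.21 for ITGA2 and -0.66 ± 0.22 for ITGA3, and 0.41 ± 0.14 for ITGA5. Without HCC827 siCON that of LAMB1 was -0.54; the others named moved by less than 1.5 times with any library left out.

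No chain and no gene passed limma with both siRNAs as repeats (0.0% of all genes); the adjusted p was 0.0955 for ITGB1, 0.0981 for LAMB1 and 0.101 for LAMA5, and 0.0955 to 0.926 over the 18. At an unadjusted p under 0.05 there were 8 chains, 7 lower and 1 higher, and 26.0% of all genes. Taken alone, siDYN-1 gave 1 chain past the threshold, ITGB1 (-1.02 ± 0.13, limma adjusted p = 0.0421; 0.7% of all genes). Taken alone, siDYN-2 gave 5 chains where 18.1% of all genes passed: LAMA5 (-0.96, limma adjusted p = 0.0207), ITGAV (-1.17, 0.0217), ITGB1 (-0.67, 0.0252), LAMB1 (-0.93, 0.0313) and ITGA2 (-0.93, 0.0313), all lower. ITGB1 was the chain that passed with each siRNA alone. The results of the 2 siRNAs came from the same fit, with the same siCON libraries and a common spread, so they are not independent. At least 1.5-fold lower were 3 chains in NCI-H1975 with siDYN-1 (9.18% of all genes), 10 with siDYN-2 (14.4%), 7 in HCC827 with siDYN-1 (5.15%) and 4 with siDYN-2 (6.76%). ITGA5 and LAMB3 were at least 1.5-fold higher in HCC827 with siDYN-2 (11.6%), and no chain was in the other siDYN libraries.

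Whether the lines changed by different amounts was tested as an interaction of line and treatment, in which the 2 doses of 18E or the 2 siRNAs were averaged and stand in for repeats, so that a dose effect counts as spread. No chain and no gene passed limma for 18E or for siDYN (0.0% of all genes in each), with chain adjusted p of 0.999 and 1.0. At an unadjusted p under 0.05 there were 2 chains for 18E (ITGA2 and ITGB3; 1.72% of all genes) and 0 for siDYN (1.52%). In the 18E table the median change of the chains was -0.34 in NCI-H1975 and -0.88 in HCC827 at 5 µM, beside -0.07 and -0.1 over all genes.

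A share of the laminin α and β positions was computed after the values were seen and carries no test. In HCC827 LAMB3 made up 47.3% of the summed FPKM of the laminin β chains with DMSO, 60.1% at 2.5 µM and 88.8% at 5 µM, and 59.1%, 77.8% and 85.1% with siCON, siDYN-1 and siDYN-2. The HCC827 share of LAMA3 among laminin α chains was 34.1%, 44.8% and 61.2% with 18E and 39.9%, 50.9% and 53.4% with siRNA. LAMB3 and LAMA3 thus held a larger share of their position in each treated HCC827 library than in its control. The level of LAMA3 itself was lower than the control in 3 of these 4 libraries, so its larger share there goes with a lower LAMA5.

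In NCI-H1975 LAMB3 already held 88.4% of the β chains with DMSO, then 93.7% and 95.0%, and 94.6%, 95.6% and 93.2% in the siRNA libraries. LAMA3 there held 68.1%, 70.3% and 75.1% with 18E and 74.4%, 73.7% and 79.1% with siRNA. In NCI-H1975, LAMB3 with siDYN-2 and LAMA3 with siDYN-1 were thus not above siCON. Among integrin α chains the share of ITGA5 in HCC827 was 8.78%, 9.46% and 25.6% with 18E and 17.8%, 32.0% and 31.2% with siRNA, and in NCI-H1975 22.3%, 24.7% and 29.6%, and 34.0%, 46.2% and 56.2%. In each line and experiment every treated library was above its control.

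**Figure D4:**
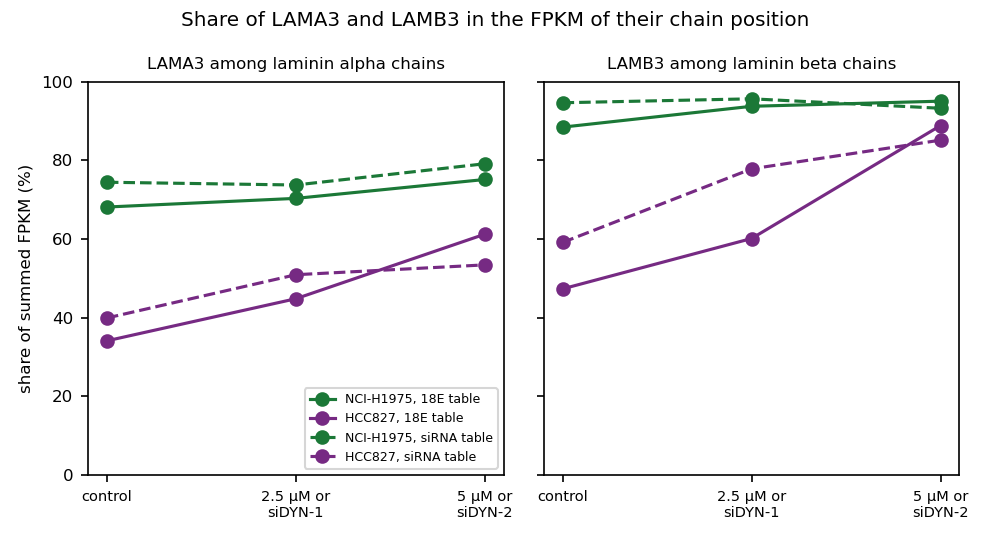
Share of LAMA3 and LAMB3 in the summed FPKM of all laminin chains of the same position (%), by treatment; each point is 1 library, green is NCI-H1975, purple is HCC827, solid lines are the 18E table and dashed lines the siRNA table. The HCC827 share of LAMB3 runs from 47.3% with DMSO to 88.8% at 5 µM, while in NCI-H1975 it is between 88.4% and 95.6% throughout.

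Other genes of cell adhesion were read from 4 lists. No member passed limma in any of the 3 treatment comparisons, which is read against the same shares of all genes as above. Of all genes, 40.8% were lower and 25.5% higher in both lines at 5 µM (median -0.09), and 5.14% at least 1.5-fold lower. With siDYN 25.6% were lower and 24.9% higher in all 4 libraries (median 0.01). The counts and medians of each list are read against these. Of the adaptors and kinases that couple integrins to actin, 25 of 30 were tested. At 5 µM 14 were lower and 5 higher in both lines (median -0.17), and TNS3, a tensin, was at least 1.5-fold lower in both (25.46 to 9.9 FPKM in NCI-H1975 and 25.37 to 5.42 in HCC827). ZYX, the actin regulator zyxin, was higher in all 4 18E libraries, by 0.28 to 0.77. With siDYN 8 were lower and 6 higher in all 4 libraries (median 0.02), among them PTK2, the focal adhesion kinase (-0.38 to -0.77), and its relative PTK2B (0.23 to 1.19).

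All 8 hemidesmosome and tetraspanin partners were tested, and at 5 µM 6 were lower and 1 higher in both lines (median -0.36). COL17A1, the transmembrane collagen of hemidesmosomes, stood at 14.51 FPKM in HCC827 with DMSO and at 5.03 at 5 µM, but at 2.64 and 2.93 in NCI-H1975. With siDYN COL17A1 was higher in all 4 libraries, by 0.55 to 1.41, while DST, a plakin of hemidesmosomes, was lower in all 4, by -0.49 to -0.80. Of the matrix ligands, 13 of 20 were tested, and at 5 µM 8 were lower in both lines and 0 higher (median -0.39). The heparan sulfate proteoglycans AGRN and HSPG2, which bind laminin, were at least 1.5-fold lower in both lines. AGRN stood at 29.87 FPKM with DMSO and 18.99 at 5 µM in NCI-H1975, and at 81.11 and 20.1 in HCC827. HSPG2 stood at only 2.44 and 1.13 FPKM in NCI-H1975 and at 4.54 and 1.09 in HCC827, so its fold rests on few FPKM.

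Of the other laminin receptors all 5 were tested, and at 5 µM 4 were lower in both lines and 0 higher (median -0.60). DAG1, the dystroglycan precursor that binds laminin α chains, stood at 41.99 and 19.23 FPKM in NCI-H1975 and at 40.87 and 11.46 in HCC827 with DMSO and 5 µM. BCAM, a receptor for LAMA5, stood at 20.41 and 9.23 FPKM in NCI-H1975 and at 10.24 and 2.14 in HCC827. DAG1 and BCAM were the 2 of this list at least 1.5-fold lower in both lines. With siDYN 1 of the 5 was lower in all 4 libraries, CD44 (-0.29 to -1.0), and 1 higher, SDC4 (0.04 to 1.73). At 2.5 µM and with siDYN no gene of the 4 lists was 1.5-fold away from the control in one direction in every library. This is rare over all genes too: 0.335% were lower and 1.11% higher by this rule at 2.5 µM, and 0.7% and 1.34% with siDYN.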

How the data were processed

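RNA was measured in 12 libraries, 1 per line and treatment. Per the file headers the authors deposited FPKM values, rounded to 2 decimals, with 1 table for 18E and 1 for siRNA. Per the submitters' processing notes, Bowtie 0.12.2 and the builds GRCh38.p12 and mm8 (a mouse build) were listed, with no role stated. The quantification tool and the strand setting were not given in the sources used here. Read totals were not analysed here, so depth is unknown and no interval for counting error can be given; genes listed at 0 numbered 534 to 2212 per library.

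Complete genes numbered 16760 for 18E and 17442 for siRNA. From the former, 20 genes without all values were left out, and from each, 20 lines of spilled annotation. Columns were matched to samples by name. Values were transformed to log2(FPKM + 1), which understates changes of low genes. Genes at 1 FPKM or more in at least 2 libraries were tested, 11953 and 11718, with limma 3.58.1 in R 4.3.3 (variance trend, line as block, Benjamini-Hochberg adjustment over all genes tested, two-sided, threshold 0.05). Residual degrees of freedom were 2 for 18E and 3 for siDYN. The script was tested on simulated data. The tables were each fitted alone, and the labels do not say whether a line was grown in more than 1 culture. Fold counts used 1.5-fold, in both lines at a dose or in all 4 siDYN libraries.

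A gene that meets the rule is not reported here and is in no count of chains. Members, lists and tests were chosen with earlier results of these data known. Every tested chain is named, by a rule that names chains past a threshold and their partners. FPKM values in every library are printed for all of them but LAMB2 and ITGAE, which are given mainly by their ranges. Genes of the 4 adhesion lists are named where at least 1.5-fold lower in both lines. Others are examples with large mean changes, and some of like size are not named, such as TNC with 18E and PARVB with siDYN. Gene coordinates are from GENCODE gene models on GRCh38, and promoter windows from RefSeq on GRCh38.p14. Alternatives were other pseudocounts, filters, scalings, fold limits, single siRNAs, no variance trend and each library left out.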

Additional observations from a re-analysis of the deposited data

Results flagged for a closer look

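In all, 3 chains lay on opposite sides of the control in the 2 lines, in both treated libraries of each. With 18E, ITGA2 was above DMSO in NCI-H1975 and below it in HCC827, a fitted difference between the lines (HCC827 minus NCI-H1975) of -1.42 ± 0.48 (SE) on log2(FPKM + 1), with an unadjusted p of 0.0287 and an adjusted p of 0.999 in limma. ITGB3 had the reverse pattern, with a difference of 1.25 ± 0.33 (unadjusted p = 0.0112, limma adjusted p = 0.999), but it stood at no more than 0.61 FPKM in the HCC827 libraries of that table. With siDYN, LAMB3 was below siCON in NCI-H1975 and above it in HCC827, with a difference of 0.80 ± 0.49 (0.157, limma adjusted p = 1.0). None of these differences passed the threshold. Opposite signs of this kind were seen in 13.8% of all genes with 18E and 6.86% with siDYN, beside 2 and 1 of the 18 chains.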

How the results depend on the processing

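The median change of the chains stayed below 0 in each treatment comparison under the alternatives run, but fitted changes of some chains changed sign. At 5 µM ITGA2 went from -0.639 to 0.073 without HCC827 DMSO, and ITGB3 from -0.118 to 0.509 without NCI-H1975 DMSO. With siDYN LAMB3 went from 0.1 to -0.297 without HCC827 siCON. The siDYN changes of ITGB2, ITGB5 and ITGAE also changed sign with a library left out. Sign changes of single chains were read at 5 µM and with siDYN only. At 2.5 µM the lines differed in sign for several chains, such as ITGA2 (0.19 in NCI-H1975 and -0.87 in HCC827) and ITGB6 (-0.79 and 0.27). Depth is unknown, and with 1 library per line and treatment each call rests on few libraries. Without a filter on low values, which adds the low chains, the median change was -0.144 at 5 µM, -0.085 at 2.5 µM and -0.058 with siDYN. With 1 library left out, 0 to 14 chains passed limma at 5 µM against DMSO and 0 to 12 at 5 µM against 2.5 µM. The highest counts both came without the NCI-H1975 library at 5 µM, where 37.8% and 29.1% of all genes passed; 2 passed without NCI-H1975 DMSO (LAMA5 and LAMB3) and 1 (LAMB1) without either 2.5 µM library.

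Leaving out a library of 1 line turns a rule over both lines into a rule over 1. At 5 µM the count at least 1.5-fold lower in every line was then 6 to 12 and that higher 0 to 2, with the largest values without NCI-H1975 DMSO or its 5 µM library. At 2.5 µM these counts were 1 to 3, the 3 without HCC827 DMSO or its 2.5 µM library, and 0 to 1, and the median was -0.246 without an HCC827 library and -0.048 without an NCI-H1975 one. At 5 µM, 2 chains were at least 1.5-fold lower with quantile normalization; on the unchanged scale 1 was at least 2-fold lower. With siDYN the count of 1 became 3 with a pseudocount of 0.1, 3 with equal FPKM totals, 4 with siDYN-2 alone, 0 at 2-fold and 1 to 3 with 1 library left out. With siDYN-1 or siDYN-2 alone 1 and 5 chains passed limma. Other causes of these shifts were not tested. Line is a block in every treatment fit, so treated and control libraries were compared within a line.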
